A study of Homo sapiens with 6 samples.

Results

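The genes that copy DNA were examined in Ishikawa cells, an endometrial adenocarcinoma line of epithelial origin. The set held 46 genes, taken by symbol from a list of replication factors, enzymes of nucleotide supply and S-phase regulators. All 46 were among the 26364 genes of the count table, and all 46 passed the filter on low counts that left 15611 genes for testing. RNA came from the parental line and from 2 clones labelled as knockouts of ETV4, an ETS-family transcription factor. For each of these 3 lines there was a poly(A)-selected library from vehicle-treated cells (0.1% DMSO) and another from cells given estradiol (E2) at 10 nM. All 6 cultures had been moved to hormone-depleted medium before treatment. The parental groups therefore have n = 1 and the knockout groups n = 2, where each clone is a single line, so genotype and clonal history cannot be told apart. The labels give the treatment time as 8 h in the protocol and as 1 h in the sample characteristics. How the knockout was made is not given in the sources used here. Nothing in the labels says that the clones or cultures were repeated, so p-values measure the spread between these libraries.

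DNA replication starts at origins, where the origin recognition complex, CDC6 and CDT1 load the ring of MCM2 to MCM7 onto DNA in G1, a step called licensing. In S phase CDC45 and the GINS complex turn that ring into the active helicase, primase and polymerase alpha lay down primers, and polymerases epsilon and delta extend the strands on the PCNA clamp. Most of these genes are transcribed under E2F transcription factors and peak around the G1/S transition, so their transcripts are widely read as a sign of cycling cells. In the endometrium estrogen is known for driving proliferation of the epithelium. In bulk RNA a smaller share of cells in S phase and less transcript per cell cannot be told apart.

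The 6 libraries held between 28037392 and 36829479 counts, and the members took 0.495% to 0.547% of them. The parental DMSO library stood apart from the other 5 in scaling and spread. Its scaling factor was 0.899 against 1.01 to 1.04, and across genes the SD of its log2 difference from the mean of the others was 0.723 against 0.466 to 0.543. The Spearman correlation of that difference with GC content was -0.281 in it and 0.273 in the parental E2 library, the 2 extremes. It was -0.236 (DMSO) and -0.0439 (E2) in clone 1, and 0.231 and 0.209 in clone 2. The members' differences without the parental DMSO library are given beside the E2 and knockout results. ETV4 stood at 19.7 CPM (TMM-scaled counts relative to library size) in DMSO and 28.4 in E2 in the parental line, and at 2.42 to 3.41 in the 4 clone libraries. Both estrogen controls rose with E2, GREB1 by 2.96 and PGR by 3.94 on the log2 scale, with adjusted p of 0.00214 and 0.00772 (edgeR quasi-likelihood, Benjamini-Hochberg). All 8 epithelial markers examined were present, with mean levels from 117 CPM for CLDN4 to 867 CPM for KRT8. The fibroblast markers DCN and LUM had at most 3 counts in any library, although COL1A1 averaged 56.7 CPM. The other fibroblast markers, COL1A2 and COL3A1, passed the filter at 0.0838 to 0.721 and 1.34 to 9.73 CPM. Of the immune markers CD3E had 0 counts throughout and PTPRC had at most 5. Of 3 endothelial markers only VWF passed, at 1.61 to 3.96 CPM, and PECAM1 and CDH5 had at most 5 counts.

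Transcript level differed widely among the members when it was set per length. PCNA, the sliding clamp, averaged 249 CPM per kb of transcript over the 6 libraries and was the highest. POLD2, a small subunit of polymerase delta, followed at 96.7 CPM per kb, then the licensing helicase genes MCM7 at 90.8 and MCM3 at 87.5. The lowest levels per kb belonged to the E2F genes, with 3.42 for E2F8, 3.94 for E2F2 and 9.96 for E2F7. The large catalytic subunits were also low, with POLA1 at 11.1 and POLE at 15.3 CPM per kb. Summed over the 46 genes, the level without regard to length lay between 4915 CPM in clone 1 in E2 and 5564 CPM in the parental line in DMSO.

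The promoters of the members were read from RefSeq sequence (GRCh38.p14), as a window from 250 bases before to 50 bases after the start site. At least 1 window was found for 39 of the 46 genes, and a gene was counted if any of its windows held a match. At least 1 of the E2F letters TTTGGCGC, TTTCCCGC, TTTCGCGC or TTTGCCGC, on either strand, occurred in 21 of 39 members (53.8%), against 3.99% of 27305 genes. The box CCAAT, bound by NF-Y, occurred on either strand in 25 of 39 (64.1%), against 39.7% of genes. The ETS letters CCGGAAGT, the kind of site that ETV4 and its relatives recognise, occurred in 3 of 39 (7.69%), namely RFC4, GINS3 and POLA1, against 4.95% of genes. The palindrome of the estrogen response element, GGTCA and TGACC with any 3 bases between them, was not found in any window of the 39 members. It occurs in 0.0732% of genes. A match is a run of letters and does not show binding.

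Stretches of 60 bases are printed for 12 members whose values are described below, 5′ to 3′ on the strand of the gene, with the letters for which each is shown in capitals. PCNA also holds E2F letters and MCM6 also holds CCAAT in these stretches, left in lower case. The first 8 show E2F letters. They lie on the minus strand at chr12:132687343-132687402 (POLE), chr19:48170425-48170484 (LIG1), chr20:33686386-33686445 (E2F1), chr16:85688955-85689014 (GINS2) and chr2:135876496-135876555 (MCM6). On the plus strand they lie at chr18:657588-657647 (TYMS), chr13:33818068-33818127 (RFC3) and chr16:88803728-88803787 (CDT1). In E2F1 there are separate matches on both strands, and in MCM6 matches on both strands overlap. The CCAAT box is shown for PCNA (chr20:5126623-5126682), TK1 (chr17:78187066-78187125) and PRIM1 (chr12:56752324-56752383), and the ETS letters for RFC4 (chr3:186806502-186806561), all on the minus strand.
POLE: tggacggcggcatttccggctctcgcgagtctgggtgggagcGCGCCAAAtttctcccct
LIG1: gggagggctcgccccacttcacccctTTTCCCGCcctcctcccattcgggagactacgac
E2F1: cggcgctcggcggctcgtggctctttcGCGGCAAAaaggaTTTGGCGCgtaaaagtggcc
GINS2: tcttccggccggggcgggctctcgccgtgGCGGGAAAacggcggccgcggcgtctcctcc
TYMS: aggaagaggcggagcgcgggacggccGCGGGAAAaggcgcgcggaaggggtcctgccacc
RFC3: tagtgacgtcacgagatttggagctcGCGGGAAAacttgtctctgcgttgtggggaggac
CDT1: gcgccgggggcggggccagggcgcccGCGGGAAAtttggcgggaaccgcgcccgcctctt
MCM6: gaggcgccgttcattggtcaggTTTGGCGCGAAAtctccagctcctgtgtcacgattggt
PCNA: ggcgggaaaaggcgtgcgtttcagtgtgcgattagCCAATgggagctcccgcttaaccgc
TK1: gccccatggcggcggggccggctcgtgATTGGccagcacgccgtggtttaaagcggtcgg
PRIM1: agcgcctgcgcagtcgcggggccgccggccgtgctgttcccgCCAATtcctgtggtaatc
RFC4: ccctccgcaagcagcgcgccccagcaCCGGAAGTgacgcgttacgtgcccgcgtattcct

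The E2 effect was tested on all 6 libraries, with genotype as a covariate. No replication gene passed. The count was 0 of 46 at an adjusted p below 0.05 (edgeR quasi-likelihood), against 1.13% of all genes tested. The members nearest to the threshold were UHRF1 and POLE, which were higher in E2 in all 3 lines, and TK1, which was lower in all 3. At an unadjusted p below 0.05 there were 7 members (15.2%), against 20.4% of all genes. The members' median log2 difference was -0.05, beside -0.02 over all genes tested and -0.03 over those averaging at least 10 CPM. With line as a replicate block, which pairs the DMSO and E2 libraries of each line, the count was again 0, against 2.46% of all genes. DESeq2 called 3 members, UHRF1, POLE and TK1, against 7.14% of all genes, and limma-voom called 0 against 1.11%. Leaving out 1 clone moved the count: without clone 2 it was 11 members (4 higher and 7 lower, against 21.6% of all genes), and without clone 1 it was POLE alone, against 4.83%. With 1 clone left, genotype stands for line, so these fits are paired. Each left 1 residual degree of freedom, and its p-values draw on a variance pooled over all genes. Without the parental DMSO library the parental E2 library has no partner and is taken up by the genotype term. The E2 difference then comes from the clones alone, here and wherever that fit is given below. It is not separate from the test of the clones on their own. The count in it was 0, against 0.361% of all genes. The difference was then smaller in size for 32 members and had the other sign for 14, among them PCNA (0.01), RFC4 (0.05), MCM2 (-0.10), E2F1 (-0.02), E2F7 (-0.14), CDT1 (-0.03), ORC6 (0.17) and POLD1 (-0.00).

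All 3 E2 libraries lay above all 3 DMSO libraries for 2 members, UHRF1 and POLE (4.35%), against 13.5% of all genes. They lay below for 7 members, which were TK1, RFC2, RRM1, RPA2, PRIM1, MCM5 and POLA2 (15.2%), against 10.7%. The difference had the same sign in every line for 6 members higher in E2 (13.0%, against 27.8% of all genes) and for 14 lower (30.4%, against 25.1%). The other 26 members differed in sign between lines.

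Read line by line, the E2 difference of the replication genes was widest in the parental line. There it ran from -0.95 for RPA3 and GINS2 to 1.69 for UHRF1 on the log2 scale, against -0.49 to 1.01 in clone 1 and -0.31 to 0.52 in clone 2. In the parental line 5 members were at least 1.5-fold higher in E2 (10.9%, against 21.5% of all genes), namely UHRF1, POLE, CLSPN, LIG1 and POLD1. At least 1.5-fold lower were 10 members (21.7%, against 18.8%), namely PCNA, GINS1, GINS2, RFC4, POLE2, PRIM1, PRIM2, RPA2, RPA3 and TK1. In clone 1 UHRF1 and POLE were past that fold (2 members higher, against 9.73% of all genes, and 0 lower, against 6.93%). In clone 2 the counts were 0 higher and 0 lower, against 9.12% and 7.48%. All members averaged at least 10 CPM. Over the genes tested at that level, the shares higher and lower were 15.8% and 17.7% in the parental line. They were 4.26% and 1.97% in clone 1, and 3.26% and 2.69% in clone 2. The parental difference was larger in size than that of both clones for 35 of 46 members (76.1%). The share was 64.8% of all genes and 72.1% of those averaging at least 10 CPM. Each of these differences compares 1 library with 1 library and has no replicate check, and every parental value rests on the DMSO library that stood apart.

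**Figure D1:**
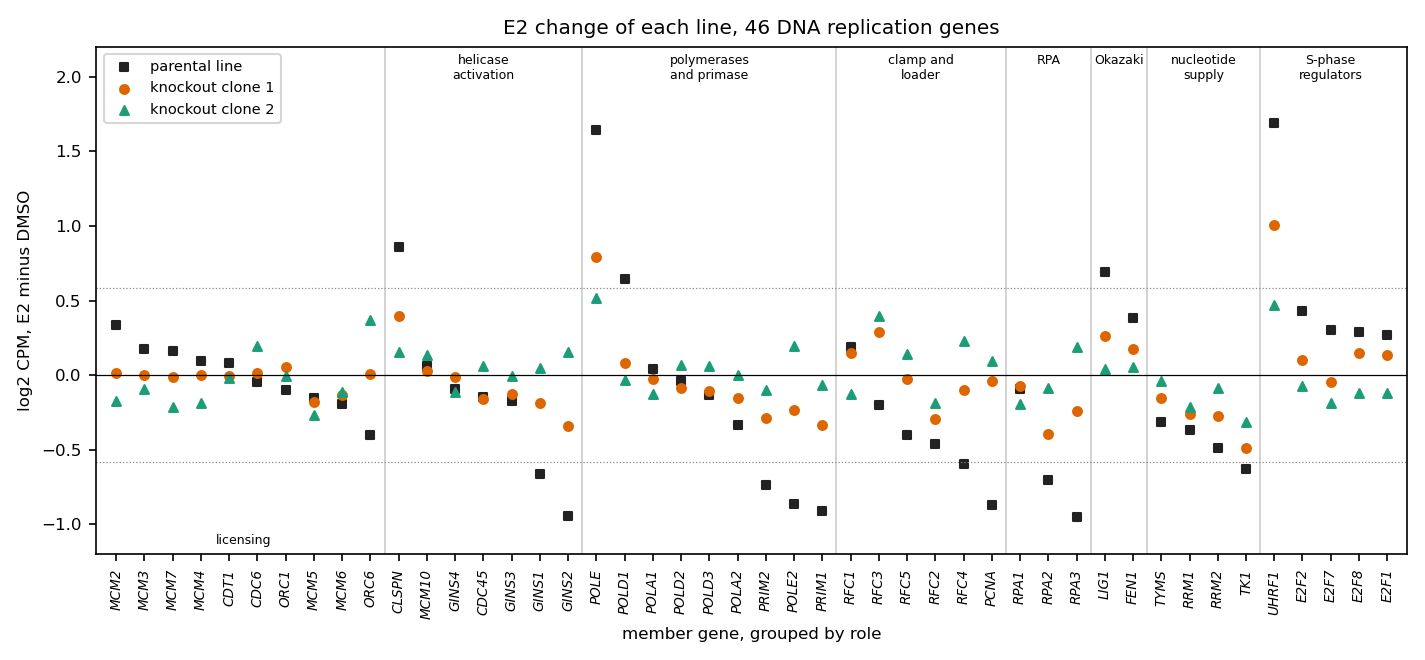
E2 minus DMSO difference in log2 CPM (y axis) for each of the 46 replication genes (x axis, grouped by role), with 1 point per line, each from 1 library per treatment; dotted lines mark 1.5-fold. The parental squares spread from -0.95 to 1.69, while the clone 2 triangles stay between -0.31 and 0.52.

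The knockout comparison set the 4 clone libraries against the 2 parental ones with treatment in the model. Here too 0 of 46 members had an adjusted p below 0.05 (edgeR quasi-likelihood), against 0.327% of all genes. An unadjusted p below 0.05 was reached by 5 members (10.9%), against 11.4% of all genes. All 5 were lower in the clones, GINS4 by -0.44 (SE 0.12), RRM2 by -0.44 (SE 0.14), GINS1 by -0.43 (SE 0.18), PRIM2 by -0.41 (SE 0.17) and ORC1 by -0.30 (SE 0.11). DESeq2, limma-voom and limma-voom with line as a random replicate block each called 0 members, against 2.91%, 0.365% and 0.295% of all genes. The median over the members was -0.11, beside 0.01 over all genes tested and -0.03 over those averaging at least 10 CPM. Without the parental DMSO library 0 members passed, against 0.0129% of all genes, and the median was -0.08. Of the members, 15 then had the other sign, among them PCNA, POLE2, GINS2, PRIM1, RFC4, RPA3 and UHRF1. Some markers of other cell types also had different levels in the same comparison, without passing the threshold. At an adjusted p below 0.05 (edgeR quasi-likelihood) there were 0 of 3 fibroblast markers, against 0.327% of all genes, and VWF did not pass either. All 3 fibroblast markers tested were lower in the clones, COL3A1 by -2.09 (SE 0.38), COL1A2 by -1.58 (SE 0.57) and COL1A1 by -0.20 (SE 0.25), and 2 of 3 had an unadjusted p below 0.05. VWF was higher in both clones in DMSO, by 1.26 and 1.02, and in E2 by 0.38 and 0.14. The 5 fibroblast markers summed to 57.7 and 85.8 CPM in the parental libraries and to 46.6 to 74.2 CPM in the clones, and their part in the members' values was not tested.

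All 4 clone libraries lay below both parental libraries for 10 members (21.7%), against 7.82% of all genes. These were the licensing genes ORC1, ORC6 and CDC6, the helicase activation genes MCM10, CDC45 and GINS4, the polymerase subunits POLA1 and POLD2, the clamp loader subunit RFC5 and RRM2. For MCM3 alone (2.17%, against 8.53%) all 4 lay above. In DMSO both clones were below the parental line for 28 members (60.9%, against 39.2% of all genes) and above it for 14 (30.4%, against 42.0%). In E2 the counts were 26 lower (56.5%, against 32.2%) and 11 higher (23.9%, against 35.6%). Of the 9913 genes averaging at least 10 CPM, as every member did, 4556 were lower and 3882 higher in both clones in DMSO. In E2 these counts were 3417 lower and 3473 higher. Of the 28 members lower in DMSO, 17 were lower in both clones in E2 as well, and 6 were higher in both: GINS2, PRIM1, POLE2, PCNA, RFC3 and RFC4. The parental DMSO library is used both by the knockout difference in DMSO and by the parental E2 difference, so these are not separate observations. It held the highest level of the 6 libraries for 24 of 46 members, against 31.7% of all genes. It held the lowest for 12 of 46, against 32.2%.

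Few of these differences were large. In DMSO POLE was at least 1.5-fold higher in both clones (1 member, against 10.1% of all genes). RPA3 and RRM2 were at least 1.5-fold lower in both (2 members, against 5.56%). Among genes averaging at least 10 CPM, as every member did, the shares were 4.84% higher and 4.58% lower. In E2 no member was past that fold in both clones, against 3.89% of all genes higher and 2.75% lower. Among genes averaging at least 10 CPM these shares were 1.20% and 0.817%. GINS4, a subunit of the GINS complex, was lower under both treatments. In DMSO the parental level was 59.5 CPM and the clones had 44.5 and 42.1, and in E2 it was 55.9 against 44.1 and 39.0. The groups did not overlap, and the difference of -0.44 had an adjusted p of 0.246 (edgeR quasi-likelihood, Benjamini-Hochberg).

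**Figure D2:**
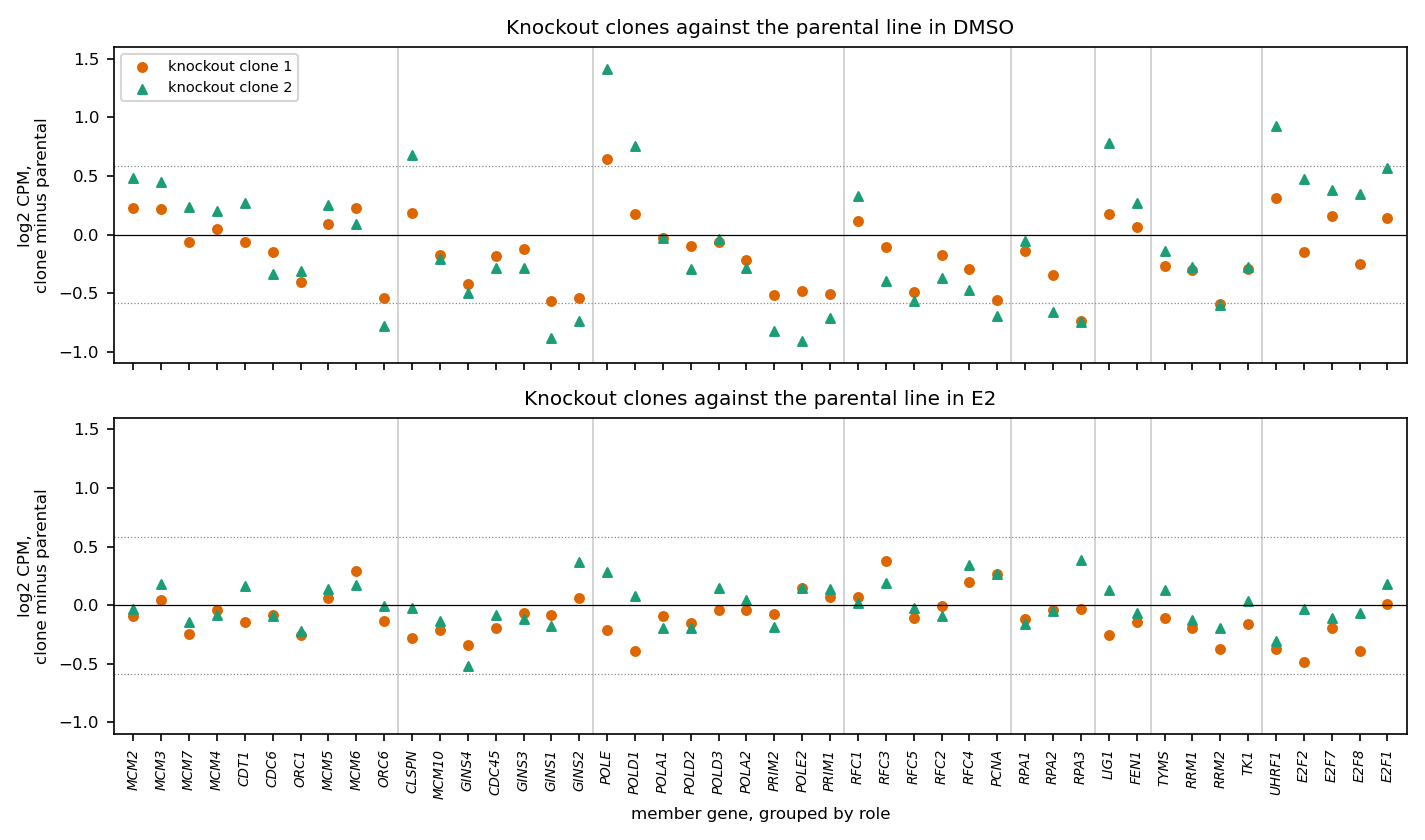
Difference of each knockout clone from the parental line in log2 CPM (y axis) for the 46 replication genes (x axis, grouped by role) in DMSO (top) and E2 (bottom), 1 library per point; dotted lines mark 1.5-fold. In DMSO the points run from -0.91 (POLE2, clone 2) to 1.42 (POLE, clone 2), and in E2 from -0.52 to 0.39.

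Among the S-phase regulators UHRF1 had the largest E2 difference. UHRF1 binds hemimethylated DNA behind the fork and recruits the maintenance methyltransferase. In CPM the DMSO libraries stood at 104 (parental), 129 (clone 1) and 197 (clone 2), and the E2 libraries at 335, 259 and 272. The E2 libraries were above every DMSO library, with a fold of 3.23 for the parental line, 2.01 for clone 1 and 1.38 for clone 2. Over the 3 lines it differed by 1.03 (SE 0.26) at an adjusted p of 0.125 (edgeR quasi-likelihood, Benjamini-Hochberg) and of 0.0795 with the replicate block. DESeq2 gave an adjusted p of 0.00197. Without the parental DMSO library the difference was 0.69, with an adjusted p of 0.459 (edgeR quasi-likelihood).

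No E2F gene passed the E2 test. E2F1, an activator of S-phase transcription whose promoter letters are shown above, stood at 41.3, 45.6 and 61.2 CPM in DMSO (parental, clone 1, clone 2) and at 49.8, 50.1 and 56.4 in E2. Its groups overlapped, with a difference of 0.09 (SE 0.15). E2F7, an atypical family member that represses E2F targets, ran 49.9, 55.7 and 64.9 CPM in DMSO and 61.5, 53.9 and 57.1 in E2. It was higher with E2 in the parental line and lower in both clones. E2F2 and E2F8 were the least abundant members, at 15.9 to 24.6 and 9.41 to 14.3 CPM, and their groups overlapped too.

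The licensing genes were the most even group. Of its 10 members none was past 1.5-fold in any line, and the median E2 difference of the parental line was 0.02, beside 0.00 for clone 1 and -0.10 for clone 2. MCM2, part of the helicase ring, stood at 166, 194 and 232 CPM in DMSO (parental, clone 1, clone 2) and at 210.2, 197 and 205 in E2, so the order of the lines changed with treatment. MCM5, another ring subunit, was lower in E2 in each line, with 113, 119.8 and 134 CPM in DMSO against 101, 106 and 111. Its groups did not overlap, yet the difference of -0.20 (SE 0.11) was not past the threshold. CDC6, a loading factor, ran from 80.1 to 101 CPM in DMSO and from 91.9 to 97.9 in E2.

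CDT1, the other loading factor, followed the line rather than the treatment. It stood at 59.1, 56.6 and 71.0 CPM in DMSO and at 62.4, 56.5 and 70.1 in E2, with an E2 difference of 0.02 (SE 0.14). ORC6, the smallest origin recognition subunit, was 74.7 CPM in the parental DMSO library and 43.5 to 56.5 CPM in the other 5 libraries. MCM3, MCM4, MCM6 and MCM7 had E2 differences between -0.14 and 0.03 over the 3 lines.

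In helicase activation CLSPN and GINS2 stood at opposite ends. CLSPN, the checkpoint mediator that travels with the fork, stood at 38.4, 43.6 and 61.7 CPM in DMSO (parental, clone 1, clone 2) and at 69.9, 57.5 and 68.8 in E2. It was higher in E2 in every line, by 0.86, 0.40 and 0.16, but clone 1 in E2 lay below clone 2 in DMSO, so the groups overlapped. Over the 3 lines the difference was 0.46 (SE 0.20), and 0.25 without the parental DMSO library. GINS2 stood at 92.3, 63.4 and 55.4 CPM in DMSO and at 47.9, 49.9 and 61.8 in E2. It was lower in E2 by 0.95 in the parental line and by 0.34 in clone 1, and higher by 0.16 in clone 2. Its 3-line difference of -0.37 was -0.11 without the parental DMSO library. GINS1 showed the same order of lines, with differences of -0.67, -0.19 and 0.05. CDC45, GINS3, GINS4 and MCM10 stayed between -0.17 and 0.14 in every line.

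In polymerase epsilon the large subunit was higher and the small one lower in E2 in the parental line. POLE, the catalytic subunit of polymerase epsilon, stood at 48.3, 75.8 and 129 CPM in DMSO (parental, clone 1, clone 2) and at 152, 131 and 185 in E2. Its groups did not overlap, and the folds were 3.13, 1.73 and 1.43. The difference of 0.96 (SE 0.30) had an adjusted p of 0.174 (edgeR quasi-likelihood, Benjamini-Hochberg), of 0.083 with the replicate block and of 0.0185 in DESeq2. Without the parental DMSO library it was 0.61, with an adjusted p of 0.618 (edgeR quasi-likelihood). POLE2, the second subunit of the same enzyme, stood at 49.7, 35.5 and 26.4 CPM in DMSO and at 27.3, 30.2 and 30.2 in E2. Its parental DMSO library was the highest of the 6 and its parental E2 library all but the lowest. The 3-line difference of -0.31 was -0.05 without the parental DMSO library.

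In polymerase delta the catalytic subunit differed most, and in primase both subunits were lower in E2 over the 3 lines. POLD1, the catalytic subunit of polymerase delta, was 51.3 CPM in DMSO and 80.3 in E2 in the parental pair, while clone 1 stood at 58.0 and 61.3 and clone 2 at 86.5 and 84.7. POLD2 and POLD3 had E2 differences between -0.13 and 0.07 in every line. PRIM1, the catalytic primase subunit, stood at 81.5, 57.1 and 49.7 CPM in DMSO and at 43.3, 45.4 and 47.6 in E2. All 3 of its E2 libraries were below all 3 DMSO libraries, and the difference of -0.44 (SE 0.17) had an unadjusted p of 0.0386 and an adjusted p of 0.224 (edgeR quasi-likelihood, Benjamini-Hochberg). PRIM2, its partner, differed by -0.38 (SE 0.16). Without the parental DMSO library both differed by -0.22, with an adjusted p of 0.705 for PRIM1 (edgeR quasi-likelihood). POLA1 and POLA2, the polymerase alpha subunits, differed by -0.04 and -0.16.

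**Figure D3:**
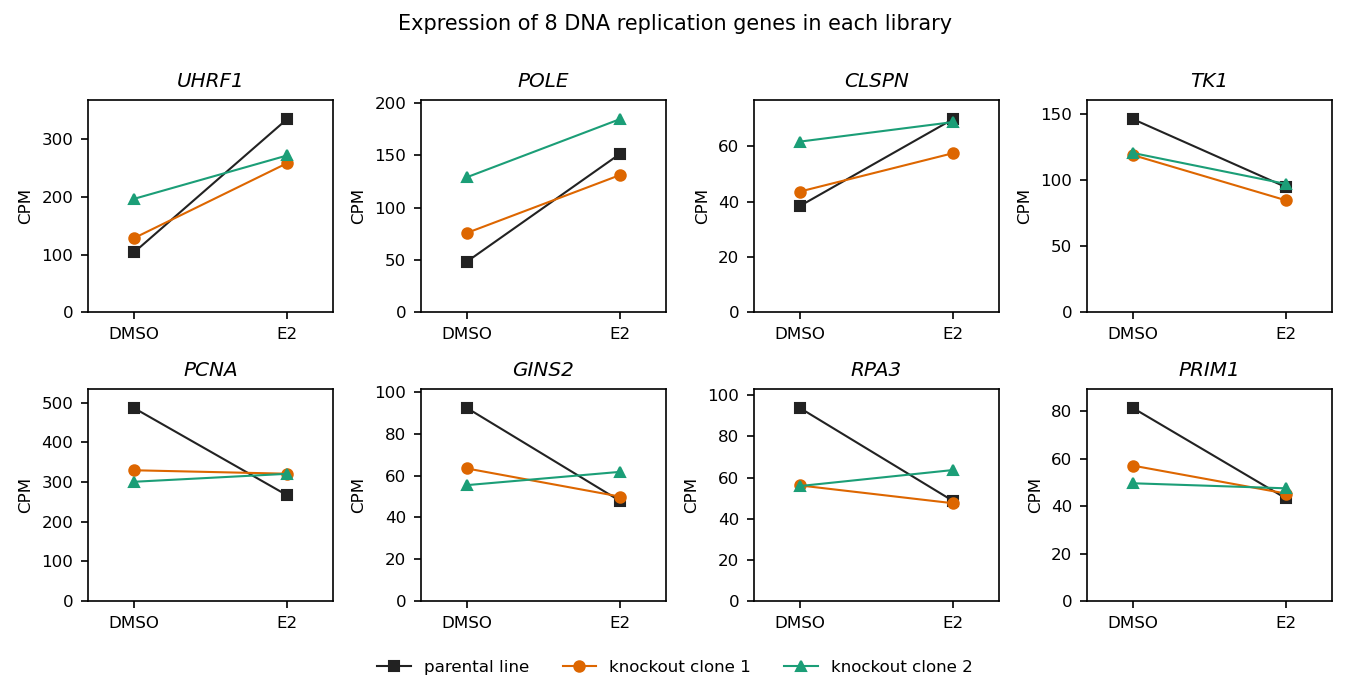
Level in CPM (y axis from 0) of 8 replication genes in DMSO and E2 (x axis), with 1 point per library and a line joining the libraries of each cell line. For PCNA, GINS2, RPA3 and PRIM1 the parental DMSO library is above the other 5, and for UHRF1 and POLE it is below them.

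The clamp PCNA had the highest level of the 46 genes in the parental DMSO library. The parental libraries held 487 CPM in DMSO and 267 in E2, against 329.8 and 321 in clone 1 and 301 and 321 in clone 2. The parental E2 library was the lowest of the 6, and the 3-line difference was -0.27 (SE 0.20), or 0.01 without the parental DMSO library. RFC4, a clamp loader subunit, stood at 122, 99.3 and 87.5 CPM in DMSO and at 80.7, 92.8 and 103 in E2, so that the order of the lines was turned round. RFC3, another subunit, was higher in E2 in both clones and lower in the parental line, with 92.9, 86.4 and 70.6 CPM in DMSO and 81.1, 106 and 92.7 in E2. RFC2 was lower in E2 in all 3 lines, at 92.2, 81.5 and 71.1 CPM in DMSO against 66.8, 66.6 and 62.6. Its difference was -0.32 (SE 0.12), with an unadjusted p of 0.0349 and an adjusted p of 0.218 (edgeR quasi-likelihood, Benjamini-Hochberg). RFC1, the large subunit, and RFC5 differed by 0.07 and -0.10.

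The 3 subunits of RPA, which coats single-stranded DNA, did not share 1 pattern. RPA1, the large subunit, stood at 269, 244 and 259 CPM in DMSO and at 252, 232 and 226 in E2, a difference of -0.12 (SE 0.12). RPA2 stood at 121, 95.0 and 76.4 CPM in DMSO and at 74.4, 72.1 and 72.0 in E2. All of its E2 libraries were below the DMSO ones, with a difference of -0.40 (SE 0.15) and an adjusted p of 0.213 (edgeR quasi-likelihood, Benjamini-Hochberg). That difference was -0.27 without the parental DMSO library. RPA3, the small subunit, was 93.8 CPM in DMSO and 48.6 in E2 in the parental pair, while clone 1 stood at 56.2 and 47.5 and clone 2 at 55.9 and 63.7. The parental DMSO library was thus above the other 5, and the 3-line difference of -0.32 was -0.03 without it.

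Okazaki fragment maturation needs the flap nuclease FEN1 and the ligase LIG1, and both were higher in E2 in every line. LIG1 stood at 36.1, 40.9 and 62.1 CPM in DMSO (parental, clone 1, clone 2) and at 58.4, 49.1 and 63.9 in E2, with overlapping groups and a difference of 0.32 (SE 0.21). FEN1 stood at 114, 119 and 137 CPM in DMSO and at 149, 134 and 142 in E2, a difference of 0.20 (SE 0.13). Neither was past the threshold, and without the parental DMSO library the differences were 0.12 and 0.10.

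All 4 genes of nucleotide supply were lower in E2 in all 3 lines. TK1, the thymidine salvage kinase, stood at 146, 119 and 120.3 CPM in DMSO and at 94.5, 84.5 and 96.9 in E2. Its groups were well apart, and it was lower by 0.63 (parental), 0.49 (clone 1) and 0.31 (clone 2). The 3-line difference of -0.47 (SE 0.12) had an adjusted p of 0.132 (edgeR quasi-likelihood, Benjamini-Hochberg), of 0.0966 with the replicate block and of 0.0237 in DESeq2. Without the parental DMSO library it was -0.42, with an adjusted p of 0.489 (edgeR quasi-likelihood). RRM2, the inducible subunit of ribonucleotide reductase, stood at 398, 264 and 262 CPM in DMSO and at 283, 218 and 247 in E2, with the parental library the highest under each treatment. RRM1, the other subunit of that enzyme, differed by -0.28 (SE 0.12) with E2. TYMS, thymidylate synthase, stood at 59.3, 49.1 and 53.7 CPM in DMSO and at 47.6, 44.1 and 52.2 in E2, where the groups overlapped.

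The clones were also tested on their own, to ask what E2 did with ETV4 knocked out. Without the block 0 of 46 members passed at an adjusted p below 0.05 (edgeR quasi-likelihood), against 0.329% of all genes, and 2 had an unadjusted p below 0.05 (4.35%, against 8.70%). DESeq2 and limma-voom called 0 members, against 2.08% and 0.255% of all genes. With the replicate block 3 members passed, against 15.0% of all genes. UHRF1 rose by 0.73 (SE 0.15), with an adjusted p of 3.54e-05 (edgeR quasi-likelihood, Benjamini-Hochberg), and POLE rose by 0.65 (SE 0.14), with an adjusted p of 1.54e-04. TK1 fell by 0.41 (SE 0.14), with an adjusted p of 0.0220 in the same test. The paired fit left 1 residual degree of freedom, so its p-values draw on a variance pooled over all genes.

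Whether the E2 difference of the clones departed from that of the parental line was tested as an interaction. Without the block 0 of 46 members passed (edgeR quasi-likelihood), against 0% of all genes, and 7 had an unadjusted p below 0.05 (15.2%, against 7.62%). DESeq2 and limma-voom called 0 members, against 0.186% and 0% of all genes. With the replicate block 10 of 46 members passed (21.7%), against 15.8% of all genes. Of the 9913 genes averaging at least 10 CPM, as every member did, 1265 passed as more positive in the clones and 780 as less positive. The members' share was thus near that of genes at their level. The E2 difference was more positive in the clones for RPA3 (0.92), PCNA (0.89), GINS2 (0.85), POLE2 (0.84), PRIM1 (0.71), RFC4 (0.66) and ORC6 (0.59). It was less positive in the clones for POLE (-0.99), UHRF1 (-0.96) and POLD1 (-0.62). Adjusted p ran from 0.00134 for RPA3 to 0.0496 for ORC6 (edgeR quasi-likelihood, Benjamini-Hochberg). This fit also has 1 residual degree of freedom, and the parental side of it is a single pair of libraries.

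Transcript length and GC content went along with these differences. Transcripts of the members ran from 1359 nt for PCNA to 7840 nt for POLE. Across the 46 members the parental E2 difference had a Spearman correlation of 0.63 with length and of 0.47 with GC content, against 0.26 and 0.33 across 14607 genes. In clone 1 the values were 0.44 and 0.26, and in clone 2 they were -0.24 and -0.13. Genes within a library are not independent replicates, and these are descriptions. The 23 members at or above the median GC content had a median parental E2 difference of 0.08, and the 23 below it one of -0.37. After each library's trend with GC content and length was removed, the members at least 1.5-fold higher in the parental line went from 5 to 3 (against 17.0% of all genes) and those lower from 10 to 3 (against 12.8%). UHRF1 then stood at 1.44, POLE at 1.08 and CLSPN at 0.88 in the parental line, with GINS2 at -0.87, RPA3 at -0.62 and TK1 at -0.60. PCNA moved from -0.87 to -0.33, PRIM1 from -0.91 to -0.26 and RFC4 from -0.59 to -0.08.

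The same correction alone called 0 members for E2 (against 2.71% of all genes), for the clones (against 0.302%) and for the interaction (against 0%). With correction and replicate block together UHRF1, POLE and TK1 passed in the 3-line E2 test (3 of 46, against 9.69% of all genes), with adjusted p of 0.0327, 0.0251 and 0.0336 (edgeR quasi-likelihood, Benjamini-Hochberg). In the clones CLSPN (0.28) and RFC3 (0.37) passed in addition (5 of 46, against 20.9%). For the interaction the count went from 10 to 4 (against 4.57%), namely UHRF1, CLSPN, GINS2 and RPA3.

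**Figure D4:**
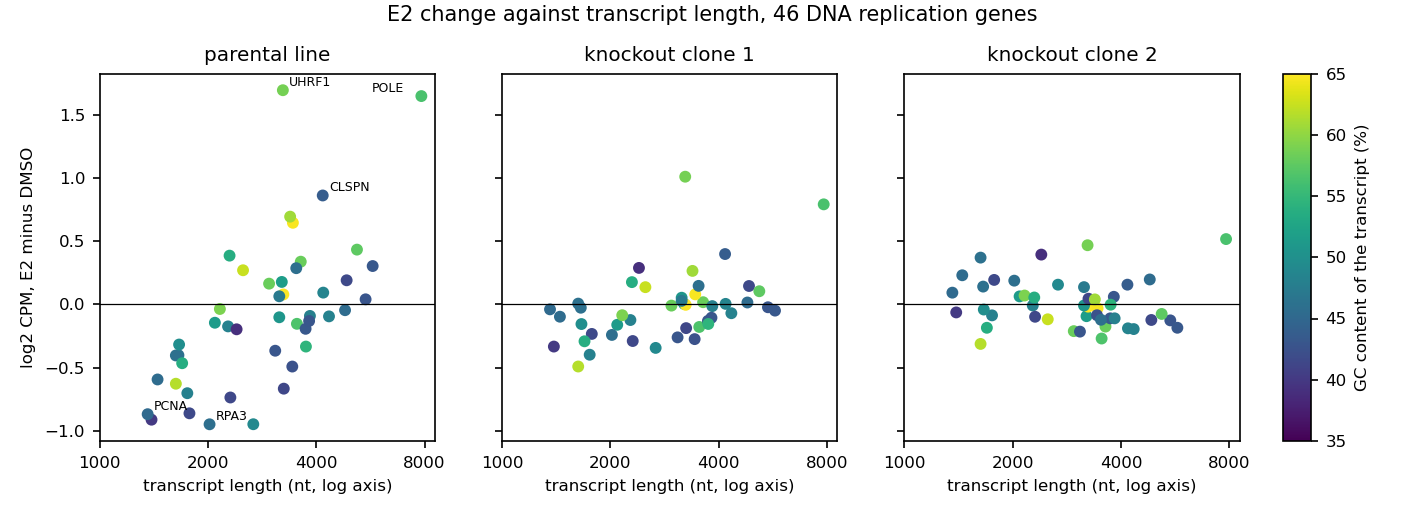
E2 minus DMSO difference in log2 CPM (y axis) against transcript length (x axis, log scale) for the 46 replication genes in each line, 1 pair of libraries per panel, coloured by GC content. In the parental panel short transcripts such as PCNA (1359 nt, -0.87) lie low and long ones such as POLE (7840 nt, 1.65) lie high, while in clone 2 the points stay between -0.31 and 0.52.

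No replication gene was called different between the clones. The test of clone 2 against clone 1 called 0 of 46 members at an adjusted p below 0.05 (edgeR quasi-likelihood), against 0.871% of all genes. At an unadjusted p below 0.05 there were 4 (8.70%, against 12.1%), E2F2, E2F8, LIG1 and POLD1, each higher in clone 2 by 0.47 to 0.54. DESeq2 and limma-voom called 0, against 2.36% and 0.807%. In DMSO the difference between the clones ran from -0.43 for POLE2 to 0.77 for POLE, and in E2 from -0.19 to 0.49.

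The other genes of the same processes were called in some fits only. Of 29 further replication genes, 10 of nucleotide supply, 8 of replication-coupled chromatin and 9 of the E2F and pocket protein family, 0 passed for E2 or for the knockout (edgeR quasi-likelihood). In the clones with the replicate block, 3 of the 29 replication genes (10.3%, against 15.0% of all genes), 1 of the 10 and 1 of the 9 passed. The clamp loader factor CHTF18 (0.64), the helicase RECQL4 (0.49) and E2F6 (0.42) rose, and POLD4 (-0.66) and SHMT1 (-0.45) fell. For the interaction with the block 11 of the 29 replication genes passed (37.9%, against 15.8% of all genes). They included GMNN (0.99), the inhibitor of CDT1, DBF4 (0.89), the activator of the CDC7 kinase, and the origin recognition subunits ORC4 (0.79) and ORC5 (0.77). CHTF18 (-0.82), TICRR (-0.69) and RECQL4 (-0.67) had the opposite sign. The share was alike for mitosis genes in the same fit, with 6 of 16 (37.5%). It was 2 of 10 for nucleotide supply (20%), 1 of 8 for chromatin (12.5%) and 1 of 9 for the E2F and pocket protein family (11.1%). Of 16 mitosis genes 0 passed for the knockout (against 0.327% of all genes), and 9 had an unadjusted p below 0.05 (56.2%, against 11.4%). Their median difference was -0.50, beside 0.01 over all genes and -0.03 over those averaging at least 10 CPM. The largest was CDC20, the activator of the anaphase-promoting complex, at -0.68, with an adjusted p of 0.102 (edgeR quasi-likelihood, Benjamini-Hochberg).

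Exons of 18 members overlap those of another gene in the annotation used here, among them RPA3, RFC4, GINS2, PRIM1, TYMS, FEN1, LIG1, CLSPN and POLD1. Whether strand was used in counting is not given in the sources used here, so reads of such neighbours may be shared. UHRF1, POLE, TK1, PCNA and POLE2 have no such overlap.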

How the data were processed

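The authors deposited a table of raw whole-number counts per gene symbol for the 6 libraries. Per the submitters' processing notes, HISAT2, SAMtools, Subread, DESeq2 and the hg19 build were used, without roles or versions. The annotation and the use of strand are not given in the sources used here, and the deposited normalized table was not used. Column names with the treatments spelled DMOS and ER were read as DMSO and E2. The analysis used edgeR 4.0.16 under R 4.3.3. Genes were filtered with filterByExpr (4 genotype-treatment groups), libraries were TMM-scaled, and quasi-likelihood tests covered all 15611 genes kept (14881 for the clones alone), adjusted by Benjamini-Hochberg at 0.05. Levels are CPM. Differences of 1 library from another are log2 ratios with a prior count of 2. Depth per library was 28037392 to 36829479 counts, and genes with few counts are the least precise. The tests were tried on simulated data first.

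Each clone or parental line gave both a DMSO and an E2 library, so libraries are paired by cell line. The difference between the clones correlated between treatments at 0.626 across all genes tested and at 0.659 across the members. Line entered as the replicate block, fixed in edgeR or, for the knockout, as a random effect in limma 3.58.1. Alternatives were median-ratio scaling, no filter, DESeq2 1.42.0, limma-voom, a 2-fold threshold, each line left out, and 2 added after seeing the data: correction for GC content and length (lowess, span 0.3, GENCODE transcripts for 93.6% of genes tested) and leaving out the parental DMSO library. Members and lists were chosen with earlier results of these data known. Members given per library were those past the threshold in any fit with or without the block, the extremes of each role group for E2, and MCM2, PCNA, CDC6, CDT1, RRM2, TYMS, E2F1 and UHRF1. GINS4 was described in addition after its values were seen. One of the immune marker genes examined is not reported here.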

Additional observations from a re-analysis of the deposited data

Results flagged for a closer look

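For 10 members the E2 difference of the clones departed from that of the parental line in the fit with the replicate block (against 15.8% of all genes tested), as clones minus parental on the log2 scale. The values were -0.99 for POLE, -0.96 for UHRF1, -0.62 for POLD1, 0.59 for ORC6, 0.66 for RFC4, 0.71 for PRIM1, 0.84 for POLE2, 0.85 for GINS2, 0.89 for PCNA and 0.92 for RPA3. In the same fit 1265 of the 9913 genes averaging at least 10 CPM passed as more positive in the clones and 780 as less positive. In the fit without the block none of the 10 members passed. In that with GC and length correction and the block UHRF1 (-0.72), GINS2 (0.79) and RPA3 (0.64) remained past the threshold. The parental DMSO library, which stood apart from the other 5, enters each of these values, and its part in them was not tested.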

How the results depend on the processing

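All comparisons rest on 1 library per line and treatment. The number of libraries, clonal differences and depth all limit them and were not ranked. The number of members past the threshold for E2 was 0, and 3 in DESeq2, 0 with GC and length correction alone, 3 with that correction and the replicate block, and 0 to 11 with 1 line left out. For the clones alone it was 0, and 3 with the replicate block and 5 with the block and the correction. For the interaction it was 0, and 10 and 4 in those fits. For the knockout and the clone difference it stayed at 0 in every alternative run. The replicate block changed no other call of a member. Members at least 1.5-fold higher and lower in the parental line numbered 5 and 10, against 2 and 0 at 2-fold and 3 and 3 after correction. In clone 1 the 2 members higher became 1 at 2-fold. In DMSO the 1 member higher and the 2 lower in both clones became 0 and 0 both at 2-fold and after correction.

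The members' median knockout difference was -0.107, against -0.129 to -0.126 with a clone left out, -0.0788 after correction and -0.0758 without the parental DMSO library. That last value compares the clones with the parental line in E2 alone. For E2 in the clones the median was -0.0500, against -0.0440 with median-ratio scaling, -0.0582 without the filter, -0.0437 with the replicate block, -0.0395 to -0.0308 with a clone left out, -0.0330 after correction and -0.0337 with correction and block. For the interaction it was 0.0842, against 0.0366 to 0.113 with a clone left out and 0.0396 with correction and block. The causes were not tested.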
